A study of Mus musculus with 11 samples.

Results

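The genes described are 5 markers of how mature a mouse beta cell is: *Ucn3*, *Cfap126*, *St8sia1*, *Aldh1a3* and *Neurog3*. They were taken by gene symbol from a table of RNA-seq counts for 55401 genes. Each symbol matched 1 row, and the 5 genes were all among the 17424 genes that passed the filter on low counts. The samples were 11 libraries of islet cells sorted by FACS from 4 mice. There were 4 libraries labelled NNAT-positive (NNAT+) beta cells, 4 labelled NNAT-negative (NNAT-) beta cells and 3 of non-beta cells. A non-beta library exists for mice 1, 2 and 3 but not for mouse 4. By the labels, every mouse was a male C57BL6/J animal on chow at 10 weeks of age that carried RIP-Cre, STOP-tdTomato and Nnat-EGFP together. In these mice Cre driven by the rat insulin promoter switches on tdTomato, which marked beta cells, and eGFP reports the activity of the *Nnat* promoter. *Nnat* encodes neuronatin, a small membrane protein of the endoplasmic reticulum that takes part in insulin handling.

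Beta cells leave a progenitor stage marked by the transcription factor neurogenin 3 and then mature after birth, when they become able to match insulin release to glucose. Urocortin 3 appears in mouse beta cells during this maturation and is lost early when beta cells dedifferentiate. *Cfap126*, also called Flattop, is a cilium-associated gene linked to planar cell polarity and marks beta cells that are more mature. *St8sia1* encodes GD3 synthase, a sialyltransferase that makes the ganglioside GD3 and has been used to sort human beta cells into subtypes. *Aldh1a3* encodes a retinaldehyde dehydrogenase that makes retinoic acid and is known as a marker of failing, dedifferentiating beta cells. Dedifferentiated beta cells are also known to regain *Neurog3*.

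The windows just before the transcription start are shown for the 3 genes that were called in the same direction against non-beta cells in both beta cell fractions, *Ucn3*, *St8sia1* and *Neurog3*. Each holds the 250 bases before the start, in the direction of the gene, from RefSeq on GRCm38.p6. Capitals mark the E-box, CANNTG, the class of site bound by basic helix-loop-helix factors such as NEUROG3 and its target NEUROD1. The *Ucn3* window is chr13:3945350-3945599 on the minus strand, that of *St8sia1* is chr6:142964453-142964702 on the minus strand and that of *Neurog3* is chr10:62132840-62133089 on the plus strand.
Ucn3: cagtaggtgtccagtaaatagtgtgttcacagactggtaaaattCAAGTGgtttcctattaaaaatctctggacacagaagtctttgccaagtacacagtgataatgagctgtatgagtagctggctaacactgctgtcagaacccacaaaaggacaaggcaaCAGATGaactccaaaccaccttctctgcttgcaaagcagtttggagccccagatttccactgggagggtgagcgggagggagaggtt
St8sia1: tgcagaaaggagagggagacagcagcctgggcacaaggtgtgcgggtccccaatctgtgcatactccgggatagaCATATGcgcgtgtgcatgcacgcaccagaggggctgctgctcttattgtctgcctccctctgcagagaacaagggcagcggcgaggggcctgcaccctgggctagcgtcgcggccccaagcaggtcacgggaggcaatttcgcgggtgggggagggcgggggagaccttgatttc
Neurog3: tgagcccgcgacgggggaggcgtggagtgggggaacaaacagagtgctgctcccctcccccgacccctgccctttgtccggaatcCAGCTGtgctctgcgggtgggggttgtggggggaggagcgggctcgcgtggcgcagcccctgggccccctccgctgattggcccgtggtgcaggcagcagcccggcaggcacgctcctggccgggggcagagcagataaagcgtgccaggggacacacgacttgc

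The *Ucn3* window held 2 E-boxes, 206 and 87 bases before the start. The *St8sia1* window held 1 at 175 bases, and the *Neurog3* window held 1 at 165 bases. An E-box was present on either strand in 66.2% of the 32851 RefSeq windows of the same length, so its presence is common. The homeodomain core TAAT had 2 matches in *Ucn3*, at 193 and 148 bases, and none in the others (54.9% of all windows hold it). A CCAAT box lay 201 bases before the start of *St8sia1* and 89 bases before that of *Neurog3* (33.8% of all windows). The MAF core TGCTGAC (3.81% of windows) and the TATA box TATAAA (12.4%) were not in any of the 3 windows. GC content was 46.4% for *Ucn3*, 63.6% for *St8sia1* and 71.2% for *Neurog3*, against a median of 52.4% over all windows. A match of letters is a description and not a bound site. None of the matches given here overlapped another.

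On GRCm38, *Ucn3* (ENSMUSG00000044988.7) lies on chromosome 13 from 3940688 to 3945349 on the minus strand. *Cfap126* (ENSMUSG00000026649.14) lies on chromosome 1 from 171113918 to 171126967 on the plus strand. *St8sia1* (ENSMUSG00000030283.7) lies on chromosome 6 from 142821545 to 142964452 on the minus strand, and 149 of its exonic bases are shared with *Gm7457* on the opposite strand. This partner had at most 13 counts in any library. *Aldh1a3* (ENSMUSG00000015134.15) lies on chromosome 7 from 66390890 to 66427517 on the minus strand. *Neurog3* (ENSMUSG00000044312.4) is a single-exon gene on chromosome 10 from 62133090 to 62134763 on the plus strand, and 273 of its 1674 exonic bases are shared with *Fam241b* on the opposite strand. Whether the counting used strand is not given in the sources used here, so reads of *Neurog3* and *Fam241b* in that stretch may not be separated.

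Total counts per library were between 30420352 and 43238376, and a floor of 3 counts equals 0.0649 to 0.102 CPM (counts scaled to the normalised size of the library), which covers counting error only. The labels were checked against known markers. The 8 beta cell markers summed to 182483–317716 CPM in the libraries labelled NNAT+, 181280–426559 CPM in those labelled NNAT- and 10549–26006 CPM in non-beta cells. The 5 alpha cell markers summed to 119622–167289 CPM in non-beta cells and 1054–3529 CPM in beta cells, so these markers followed the labels for beta against non-beta cells. Endothelial, mesenchymal and leukocyte markers summed to at most 5.06, 4.69 and 16.4 CPM in any beta cell library and to at least 1532, 3057 and 961 CPM in non-beta cells. The 7 acinar markers summed to 12.7–1800 CPM in libraries labelled NNAT+, 40.4–405 CPM in those labelled NNAT- and 13200–50522 CPM in non-beta cells. The library with 1800 CPM was that of mouse 2. The 5 ductal markers summed to 214–260, 221–275 and 284–463 CPM in the same order. Most of the ductal sum in beta cells was *Krt7*, with means of 211, 224 and 113 CPM. *Nnat* itself went against the labels. Its level in mice 1 to 4 was 50.5, 46.4, 46.0 and 101 CPM in the libraries labelled NNAT+ and 74.8, 80.8, 66.5 and 153 CPM in those labelled NNAT-. In each of the 4 mice the library labelled NNAT+ held less of it. The fitted log2 difference was −0.62 (SE 0.17), with an adjusted *p*=0.444 by edgeR and 0.00798 by DESeq2. The names of the beta cell fractions are therefore those of the labels alone, and any direction between them rests on the labels.

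Differences were tested with the quasi-likelihood test of edgeR on all 11 libraries with the mouse as a block, and calls needed a change of more than 2-fold with an adjusted *p* under 0.01. Fold changes are log2 values throughout. In bulk RNA of a sorted fraction, fewer cells of a type and less RNA per cell cannot be told apart. How many of all tested genes have beta and non-beta libraries that do not overlap was not counted.

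*Ucn3* and *St8sia1* were markedly higher in beta cells than in non-beta cells and did not differ detectably between the beta cell fractions. In mice 1 to 4 the level of *Ucn3*, the peptide hormone of the group, was 711, 702, 676 and 456 CPM among libraries labelled NNAT+. For the same mice, libraries labelled NNAT- gave 780, 656, 711 and 490 CPM. Non-beta cells of mice 1 to 3 had 23.7, 29.3 and 44.5 CPM. The beta cell fractions overlapped, mouse 4 was lowest in each of them, and all beta cell libraries were far above all non-beta libraries. *Ucn3* was 21.8-fold higher in cells labelled NNAT+ than in non-beta cells (log2 fold change 4.44, SE 0.20, adjusted *p*=1.47e-07 by edgeR). The corresponding change for cells labelled NNAT- was 22.6-fold (4.50, SE 0.20, adjusted *p*=1.15e-07 by edgeR). The log2 difference between cells labelled NNAT+ and NNAT- was −0.06 (95% interval −0.40 to 0.29, adjusted *p*=0.998 by edgeR), lower in the library labelled NNAT+ in 3 of 4 mice.

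**Figure D1:**
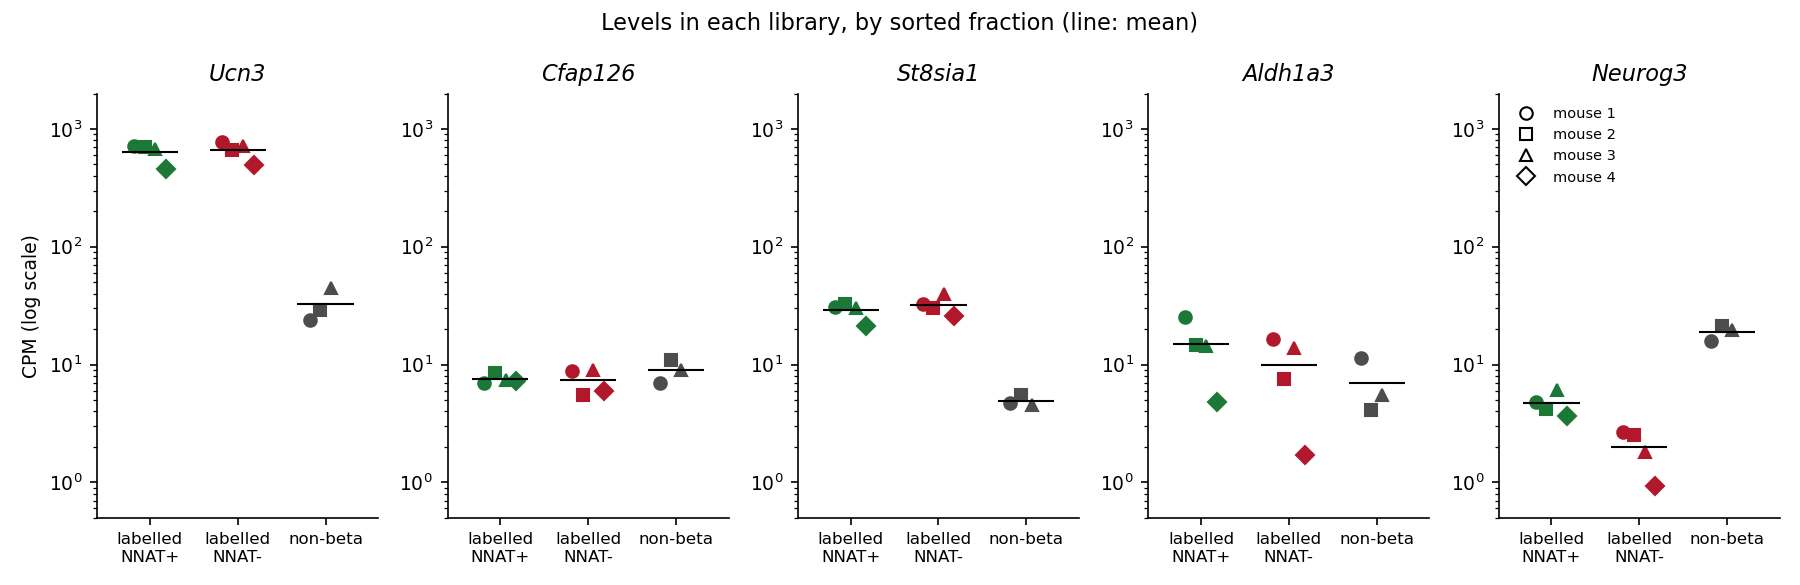
Level of each gene in each library in CPM on a log scale, with symbols for the mice and a line at the mean of the sorted fraction. *Ucn3* and *St8sia1* sit high in both beta cell fractions, *Cfap126* lies at a similar level in every fraction, *Aldh1a3* spreads widely between mice, and *Neurog3* is highest in non-beta cells.

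Per kilobase of exon, *Ucn3* was the most abundant of the 5 genes in each fraction. Its mean level was 430 CPM per kb in cells labelled NNAT+, 446 in cells labelled NNAT- and 22.0 in non-beta cells. The next gene in the beta cell fractions was *Cfap126*, at 4.24 and 4.13 CPM per kb. Among all tested genes with a length, *Ucn3* ranked between 31 and 38 in the beta cell libraries and between 1093 and 2312 in the non-beta libraries. *Ucn3* is thus an abundant transcript of these adult beta cells, on the scale per kilobase.

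The GD3 synthase gene, *St8sia1*, measured 31.0, 32.9, 30.2 and 21.1 CPM for mice 1 to 4 among libraries labelled NNAT+. Those labelled NNAT- had 32.8, 30.4, 39.5 and 25.8 CPM, and non-beta cells of mice 1 to 3 had 4.67, 5.51 and 4.52 CPM. Every beta cell library was above every non-beta library, and the beta cell fractions overlapped, again with mouse 4 lowest in each. The gene was 6.32-fold higher in cells labelled NNAT+ than in non-beta cells (log2 fold change 2.66, SE 0.15, adjusted *p*=4.73e-07 by edgeR) and 7.08-fold higher in cells labelled NNAT- (2.82, SE 0.15, adjusted *p*=3.05e-07 by edgeR). Its difference between the beta cell fractions was −0.17 (95% interval −0.44 to 0.11, adjusted *p*=0.918 by edgeR).

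*Cfap126*, the Flattop gene, was low in each fraction, with no difference that passed the test. In mice 1 to 4, libraries labelled NNAT+ gave 6.91, 8.44, 7.43 and 7.31 CPM, and those labelled NNAT- gave 8.87, 5.48, 8.99 and 5.93 CPM. Non-beta cells of mice 1 to 3 had 7.00, 11.0 and 9.01 CPM. All 3 fractions overlapped, so the gene did not mark beta cells against non-beta cells in these libraries. The log2 difference between the beta cell fractions was 0.05 (95% interval −0.49 to 0.58, adjusted *p*=1 by edgeR), and the library labelled NNAT+ was higher in 2 of 4 mice. The differences from non-beta cells were −0.20 (SE 0.27, adjusted *p*=0.588 by edgeR) for cells labelled NNAT+ and −0.24 (SE 0.27, adjusted *p*=0.487 by edgeR) for cells labelled NNAT-.

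*Aldh1a3*, the retinaldehyde dehydrogenase, varied more between mice than between the fractions. In mice 1 to 4, 25.3, 14.7, 14.5 and 4.82 CPM were measured in libraries labelled NNAT+. Those labelled NNAT- had 16.4, 7.49, 13.8 and 1.70 CPM, and non-beta cells of mice 1 to 3 had 11.3, 4.11 and 5.51 CPM. Mouse 1 was highest in every fraction, mouse 4 was lowest in both beta cell fractions, and all 3 fractions overlapped. The highest library was 5.25 times the lowest among those labelled NNAT+ and 9.69 times the lowest among those labelled NNAT-. The SD of log2 CPM was 1.00 (n=4), 1.47 (n=4) and 0.74 (n=3) in cells labelled NNAT+, cells labelled NNAT- and non-beta cells. The medians over all tested genes were 0.30, 0.36 and 0.26, and the SD of *Aldh1a3* was above that of 84.4%, 87.5% and 82.6% of them.

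Within each mouse the order of *Aldh1a3* was nevertheless the same. The library labelled NNAT+ exceeded the one labelled NNAT- in 4 of 4 mice, by 0.07 to 1.48 on the log2 scale, and each beta cell library exceeded the non-beta library of its mouse. The fitted log2 difference between the beta cell fractions was 0.76 (SE 0.23, 95% interval 0.25 to 1.28), which was not called (unadjusted *p*=0.00803, adjusted *p*=0.56 by edgeR). Against non-beta cells the gene was 2.97-fold higher in cells labelled NNAT+ (1.57, SE 0.26, adjusted *p*=0.000714 by edgeR). This call was lost without the mouse block (1.09, adjusted *p*=0.242) and without mouse 2 (1.42, adjusted *p*=0.0107). For cells labelled NNAT- the difference from non-beta cells was 0.81 (SE 0.26, adjusted *p*=0.0235 by edgeR) and was not called.

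**Figure D2:**
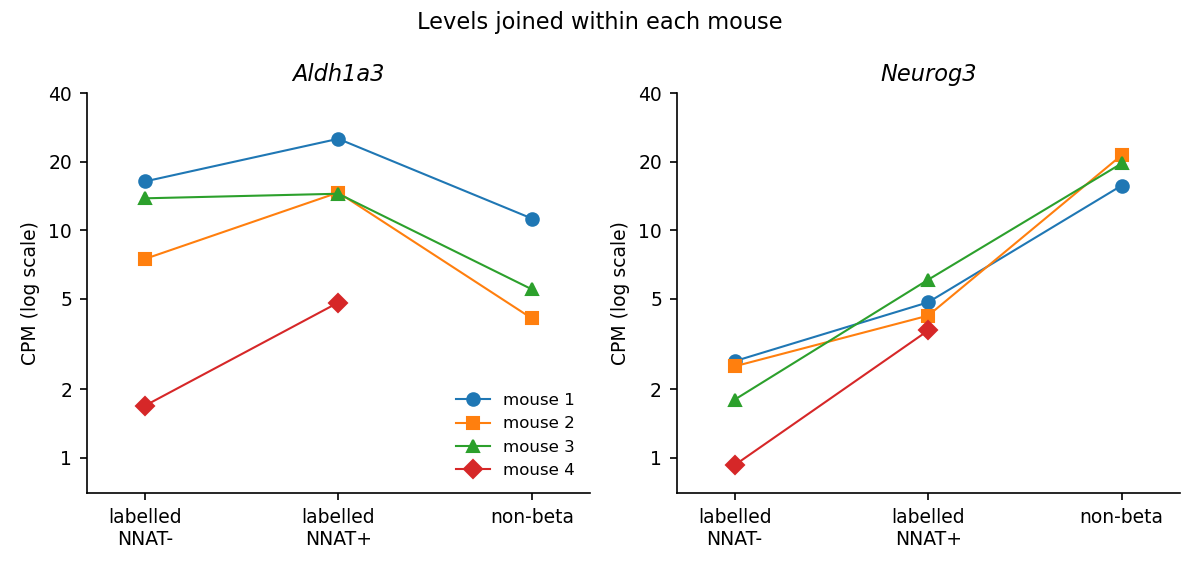
Levels of *Aldh1a3* and *Neurog3* in CPM on a log scale, with a line for each mouse through its sorted fractions. The lines of *Aldh1a3* start between 1.70 and 16.4 CPM and all peak in cells labelled NNAT+, whereas the lines of *Neurog3* lie close together and rise towards non-beta cells in mice 1 to 3.

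*Neurog3*, the endocrine progenitor factor, showed the opposite pattern to *Ucn3* and was highest in non-beta cells. Non-beta cells of mice 1 to 3 had 15.8, 21.4 and 19.7 CPM. The libraries labelled NNAT+ had 4.83, 4.22, 6.07 and 3.63 CPM, and those labelled NNAT- had 2.66, 2.53, 1.80 and 0.930 CPM. None of the 3 fractions overlapped, and the order was non-beta cells, then cells labelled NNAT+, then cells labelled NNAT-. These levels rest on 729 to 809 counts per library in non-beta cells, 159 to 232 in cells labelled NNAT+ and 34 to 83 in cells labelled NNAT-. Compared with non-beta cells, *Neurog3* was 3.51-fold lower in cells labelled NNAT+ (log2 fold change −1.81, SE 0.28, adjusted *p*=0.000435 by edgeR) and 8.70-fold lower in cells labelled NNAT- (−3.12, SE 0.29, adjusted *p*=1.05e-05 by edgeR).

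In the comparison of beta cell fractions *Neurog3* was higher in the library labelled NNAT+ in 4 of 4 mice, by 0.73 to 1.91 on the log2 scale. The fitted difference was 1.31 (SE 0.26, 95% interval 0.73 to 1.89), or 2.48-fold, but it did not pass the test over all genes (unadjusted *p*=0.000547, adjusted *p*=0.162 by edgeR). DESeq2 called it (1.27, adjusted *p*=0.000531), and over all alternatives the adjusted *p* lay between 0.000531 and 0.67. Groups did not overlap in this direction for 1.72% of the 17424 tested genes, and the libraries labelled NNAT+ were higher in 4 of 4 mice for 11.4% of them. *Fam241b*, which shares exonic bases with *Neurog3*, had 14.5–21.1 CPM in libraries labelled NNAT+, 13.1–16.3 CPM in those labelled NNAT- and 17.9–23.7 CPM in non-beta cells, a narrower range than that of *Neurog3*. Its means of 18.7, 15.0 and 21.1 CPM in these fractions had the same order as those of *Neurog3*. The library labelled NNAT+ was higher in 4 of 4 mice, by 1.11 to 1.40 times. The part of *Fam241b* reads in the *Neurog3* counts was not tested.

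Markers of other islet endocrine cells moved with *Neurog3*. The 5 alpha cell markers summed to 2227–3529 CPM in the libraries labelled NNAT+ and 1054–1921 CPM in those labelled NNAT-. The 4 delta cell markers summed to 1403–2490 and 543–1046 CPM, and the 2 PP cell markers to 300–421 and 89.0–159 CPM. All 3 sums were higher in the library labelled NNAT+ in 4 of 4 mice, and no marker of these lists was at 0 in any library. In this comparison edgeR called 0 of 5 alpha, 1 of 4 delta (*Rbp4*) and 2 of 2 PP markers (*Ppy* and *Pyy*), each of the 3 higher in cells labelled NNAT+. Over all tested genes 0.0459% were called. As a share of the level in non-beta cells of the same mouse, *Neurog3* was at 19.7–30.8% in cells labelled NNAT+ and 9.15–16.9% in cells labelled NNAT-. The hormone genes *Gcg* (1.32–2.94% and 0.624–1.33%), *Sst* (15.5–28.7% and 6.38–8.04%), *Ppy* (10.6–19.3% and 3.49–5.00%) and *Pyy* (9.45–16.3% and 4.06–4.78%) were likewise at a higher share in cells labelled NNAT+. The part of other endocrine cells in the *Neurog3* values was not tested.

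**Figure D3:**
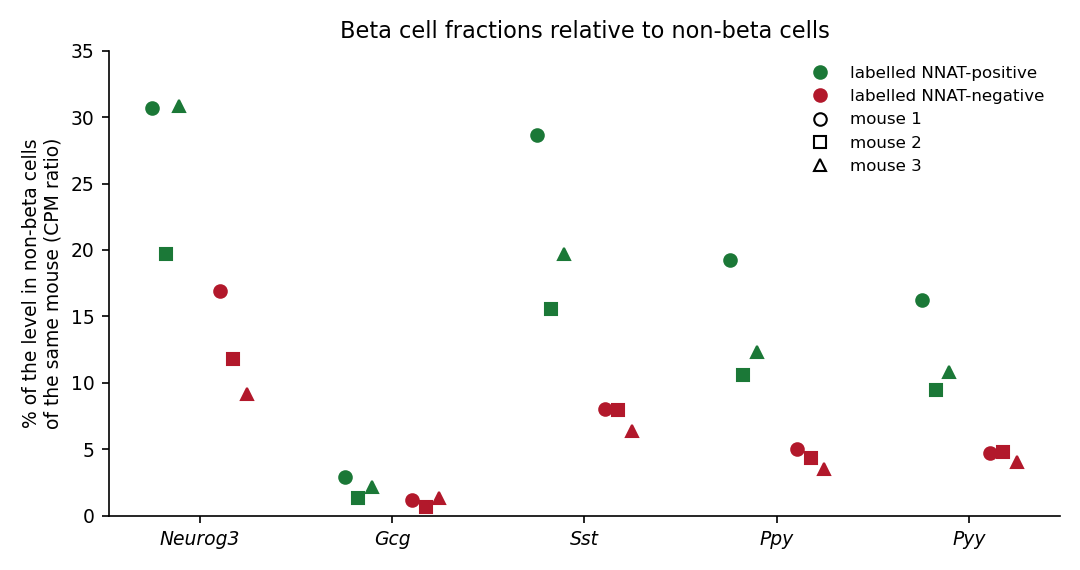
Level of *Neurog3* and of the hormone genes of alpha (*Gcg*), delta (*Sst*) and PP cells (*Ppy*, *Pyy*) in each beta cell library, as a percentage of the level in non-beta cells of the same mouse, for mice 1 to 3. For each gene and mouse the point for cells labelled NNAT+ lies above the point for cells labelled NNAT-, and *Gcg* has the smallest shares of the 5 genes.

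Counted over the comparisons, 0 of the 5 genes were called between the beta cell fractions, where 0.0459% of all tested genes were called (8 of 17424, all higher in cells labelled NNAT+). At an unadjusted *p* below 0.05, *Aldh1a3* and *Neurog3* were higher in cells labelled NNAT+, as were 4.82% of tested genes, and DESeq2 called *Neurog3* alone of the 5, with 0.459% of genes called higher. Against non-beta cells, 4 of 5 genes were called for cells labelled NNAT+, 3 higher and 1 lower, where 21.6% of tested genes were called (6.13% higher and 15.5% lower). For cells labelled NNAT- 3 of 5 were called, 2 higher and 1 lower, against a background of 23.3% (6.18% higher and 17.1% lower). Both of the latter comparisons share the 3 non-beta libraries. The median log2 fold change over all tested genes was 0.05 between the beta cell fractions and −0.06 and −0.13 against non-beta cells for cells labelled NNAT+ and NNAT-.

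**Figure D4:**
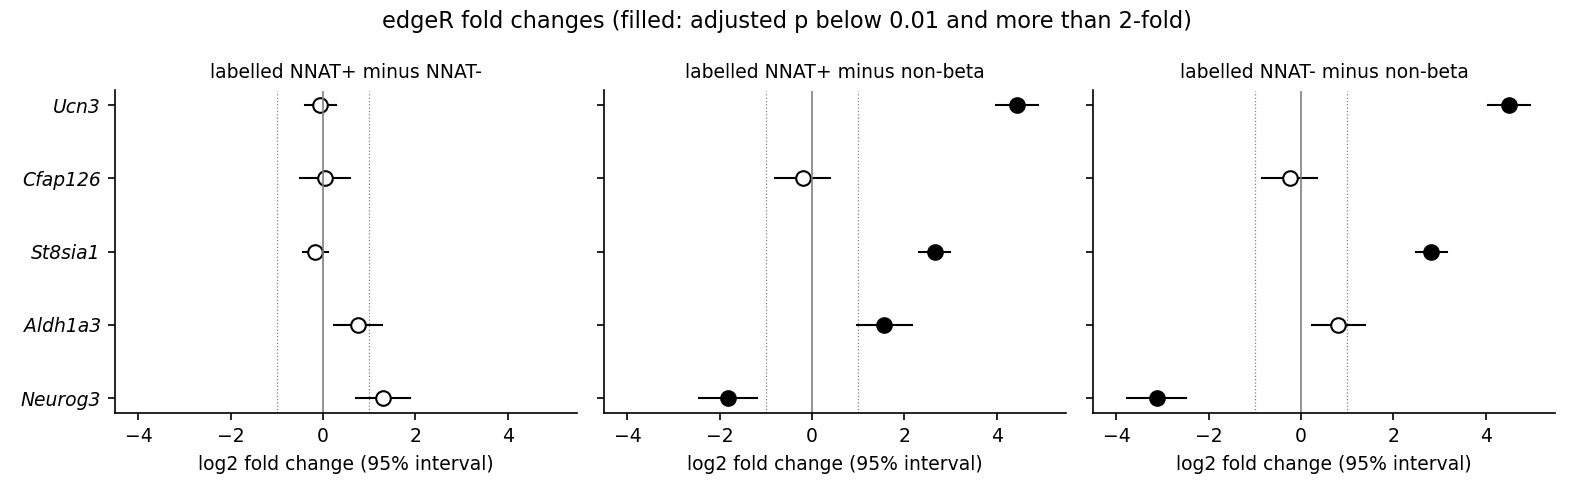
Log2 fold changes of the 5 genes with 95% intervals in the 3 comparisons, from edgeR, with filled points for called genes and dotted lines at a 2-fold change. Between the beta cell fractions no point is filled, the intervals of *Ucn3*, *Cfap126* and *St8sia1* span 0 and those of *Aldh1a3* and *Neurog3* lie above it. Against non-beta cells *Ucn3* is farthest to the right, at 4.44 and 4.50, and *Neurog3* farthest to the left, at −1.81 and −3.12.

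Other genes of beta cell maturity behaved as *Ucn3* did. Of 18 such genes, all tested, 16 were higher in each beta cell fraction than in non-beta cells, with median log2 fold changes of 3.71 for cells labelled NNAT+ and 3.78 for cells labelled NNAT-. Over all tested genes 6.13% and 6.18% were called higher in these comparisons. The 3 most abundant were *Ins2*, *Ins1* and *Iapp*, which encode the insulins and islet amyloid polypeptide, with changes of 4.38, 4.45 and 3.41 for cells labelled NNAT+. Among those not called was the transcription factor gene *Nkx2-2* (0.89 and 0.91), named after its values were seen. For cells labelled NNAT+ against NNAT-, 0 of 18 were called by edgeR, and their log2 differences ran from −0.27 to 0.12 with a median of −0.03. *Syt4*, also named after its value was seen, was nearest to a call (−0.26, adjusted *p*=0.844 by edgeR).

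Of 18 listed genes of immature or dedifferentiated beta cells, 14 were tested, and 3 of them were called between the beta cell fractions, all higher in cells labelled NNAT+, where 0.0459% of all tested genes were called. The other 11 were not called, and 3 of them, named after their values were seen, were lower in cells labelled NNAT+ without a call, *Npy* (−0.90), *Th* (−0.44) and *Myc* (−0.29). Median log2 differences of the alpha, delta and PP cell markers in the same comparison were 1.14, 1.53 and 1.44. Several of these genes were named by the study from these same libraries, so the list is not independent evidence of a direction. *Rbp4*, which encodes the plasma carrier of retinol and is also a delta cell marker, measured 68.4, 73.3, 77.9 and 68.5 CPM for mice 1 to 4 among libraries labelled NNAT+. The libraries labelled NNAT- had 26.1, 28.1, 26.4 and 27.5 CPM, with no overlap, and non-beta cells had 423–666 CPM. Its log2 difference was 1.41 (SE 0.11, adjusted *p*=0.000673 by edgeR). *Cd24a*, a surface antigen, differed by 1.39 (SE 0.15, adjusted *p*=0.00751) and *Cd81*, a tetraspanin of immature beta cells, by 1.06 (SE 0.11, adjusted *p*=0.00764), both by edgeR and without overlap. Over all tested genes, 1.72% had beta cell fractions that did not overlap in this direction. In non-beta cells *Cd24a* and *Cd81* were far higher than in either beta cell fraction, with mean levels of 225 and 261 CPM against 10.7–28.3 and 17.2–35.2 CPM. The part of other endocrine cells in these values was not tested.

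Without mouse 3 none of the 3 was called, with log2 differences of 1.37 for *Rbp4*, 1.38 for *Cd24a* and 1.13 for *Cd81*. Without mouse 1, 2 or 4 *Rbp4* was the 1 gene of the list called in each case. Without the mouse block the call of *Cd24a* (1.40, adjusted *p*=0.0313 by edgeR) and that of *Cd81* (1.04, adjusted *p*=0.0713 by edgeR) were lost as well. Both were also lost with beta cell libraries only (1.35, adjusted *p*=0.0109 and 1.02, adjusted *p*=0.0125, by edgeR). With RLE size factors the call of *Cd81* was lost (1.02, adjusted *p*=0.0115 by edgeR). The median over the 14 tested genes was 1.11, beside 0.05 over all tested genes. It includes genes with few counts in beta cells, named after their values were seen: *Slc16a1*, *Mycl*, *Ldha*, *Sox9*, *Hk1* and *Fev*. Their means in cells labelled NNAT- were 0.104, 0.159, 0.181, 0.261, 0.358 and 0.886 CPM. Against non-beta cells 11 of the 14 were lower in cells labelled NNAT+ and 12 in cells labelled NNAT-, where 15.5% and 17.1% of all tested genes were lower. The 2 that were higher in beta cells, named after their values were seen, were the neuropeptide gene *Npy* (2.22 and 3.13) and *Th*, which encodes tyrosine hydroxylase (3.08 and 3.52). *Neurog3* thus stood with most of this list, being lower in beta cells than in non-beta cells, and *Aldh1a3* in cells labelled NNAT+ with the few that were higher.

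**Figure D5:**
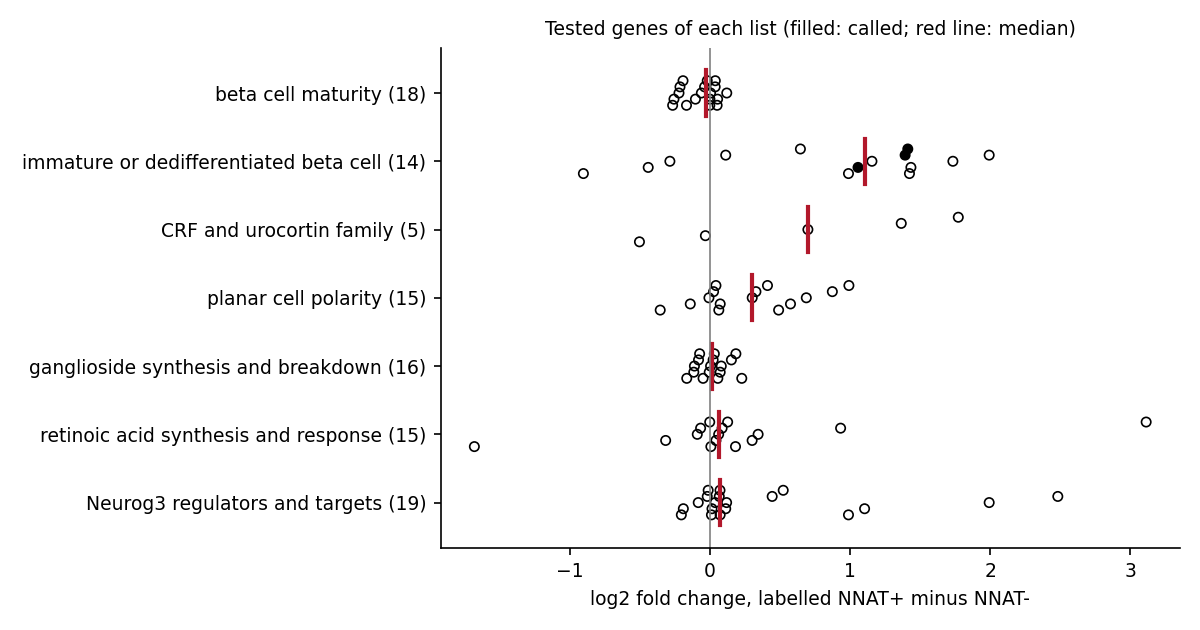
Log2 fold changes between cells labelled NNAT+ and cells labelled NNAT- for the tested genes of 7 lists, with the number tested in brackets, a red line at the median of each list and filled points for called genes. The list of immature or dedifferentiated beta cells holds all 3 filled points and has its median at 1.11, and the maturity list is gathered around 0. The points beyond 2 or below −1 are genes with few counts in beta cells.

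Genes that work with each of the 5 were taken from lists by role. Urocortin 3 is a ligand of the receptor CRHR2, which is known on delta cells, where it promotes somatostatin release. *Crhr2* had 3.31, 3.31 and 2.10 CPM in non-beta cells of mice 1 to 3, and its 8 beta cell libraries lay between 0 and 1.14 CPM. Neither difference from non-beta cells was called (−2.73, adjusted *p*=0.0709 for cells labelled NNAT+ and −4.51, adjusted *p*=0.014 for cells labelled NNAT-, by edgeR). The other receptor, *Crhr1*, was at 2.42–4.69 CPM in libraries labelled NNAT+, 3.55–5.56 CPM in those labelled NNAT- and 0–0.834 CPM in non-beta cells. It was called higher in both beta cell fractions (4.33, adjusted *p*=0.00614 and 4.83, adjusted *p*=0.00373, by edgeR), on 0 to 31 counts per non-beta library. Without mouse 1 or mouse 2 neither call held, and without mouse 4 that for cells labelled NNAT+ was lost. Both were also lost without the mouse block (3.61, adjusted *p*=0.0169 and 3.97, adjusted *p*=0.0105, by edgeR).

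The other ligands of these receptors were close to absent from the counts. *Ucn* and *Crh* had 0 counts in each of the 11 libraries, and *Ucn2* had at most 1. *Sst*, the somatostatin gene, was lower in beta cells than in non-beta cells (−2.32 and −3.69) and *Sstr3*, a somatostatin receptor gene, was higher (1.13 and 1.16). *Ramp1*, which encodes a receptor accessory protein, was lower in both beta cell fractions (−1.25 and −1.95). The call of *Ramp1* was lost without mouse 2, 3 or 4 for cells labelled NNAT+ (−1.25, −1.26 and −1.22) and without mouse 3 for cells labelled NNAT- (−1.84), with little change in the fold, and that of *Sstr3* without mouse 1 for cells labelled NNAT+ (0.99). Between the beta cell fractions 0 of the 5 tested genes of this list were called by edgeR, with *Sst* nearest (1.37, SE 0.16, adjusted *p*=0.0105), and DESeq2 called *Sst*.

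Planar cell polarity genes, the context of *Cfap126*, gave 0 calls of 15 between the beta cell fractions by edgeR. Their median log2 difference was 0.30, beside 0.05 over all tested genes, with *Celsr3* at 0.41 (SE 0.09, adjusted *p*=0.228 by edgeR). *Fzd3* and *Dlg3*, a Frizzled receptor gene and a scaffold gene, were called higher in beta cells than in non-beta cells (1.29 and 1.41 for cells labelled NNAT+, 1.30 and 1.38 for cells labelled NNAT-). The 3 called lower in both, named after their values were seen, were *Vangl1*, *Prickle2* and *Ptk7*. Over all tested genes 6.13% were higher and 15.5% lower for cells labelled NNAT+, and 6.18% and 17.1% for cells labelled NNAT-.

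Ganglioside genes, the context of *St8sia1*, also gave 0 calls of 16 between the beta cell fractions by edgeR, with log2 differences from −0.17 to 0.23. Against non-beta cells 2 of 16 were higher and 4 of 16 lower in each beta cell fraction, where 6.13% of all tested genes were higher and 15.5% lower for cells labelled NNAT+ and 6.18% and 17.1% for cells labelled NNAT-. The most abundant, *Hexa*, *B4galt6* and *Neu1*, encode a hexosaminidase subunit, lactosylceramide synthase and a sialidase, and of these *Neu1* was called (1.25 and 1.42). The other gene called higher, named after its value was seen, was *St8sia5*, a further sialyltransferase of the same family, at 3.67 and 3.79. *St3gal5*, which makes GM3, the substrate of GD3 synthase, was at 26.7, 26.8 and 29.4 CPM in cells labelled NNAT+, cells labelled NNAT- and non-beta cells, with differences of −0.06 and −0.06 from non-beta cells that were not called. Its name was also chosen after its values were seen.

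The ALDH1A genes divided between the fractions. Per kilobase of exon, *Aldh1a3* had 3.21, 2.14 and 1.51 CPM per kb in cells labelled NNAT+, cells labelled NNAT- and non-beta cells. *Aldh1a1* had 0.0370, 0.0367 and 7.49 CPM per kb, and *Aldh1a2* had 0.0237, 0.0306 and 10.6 CPM per kb. *Aldh1a3* was thus the most abundant of the 3 in beta cells and the least abundant in non-beta cells. *Aldh1a1* and *Aldh1a2* were called lower in beta cells, and the means in beta cells rest on at most 14 counts per library. *Aldh1a7* was at 0 in all 4 libraries labelled NNAT-, which allows up to 3 counts per library, and at 0 in 3 of 4 labelled NNAT+.

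Of 19 genes of retinoic acid synthesis and response, 15 were tested, and 0 were called between the beta cell fractions by edgeR. Against non-beta cells 8 were lower in cells labelled NNAT+ and 9 in cells labelled NNAT-, where 15.5% and 17.1% of all tested genes were lower. In both comparisons 0 were higher, where 6.13% and 6.18% of all tested genes were higher. The most abundant were the receptor genes *Rxra*, *Rxrb* and *Rarg*. *Rxra* was lower in beta cells (−1.48 and −1.57), as was *Rarg* (−1.28 and −1.58), and *Rxrb* was not called (−0.07 and −0.20). *Aldh1a3* was the member of this pathway that was called higher in a beta cell fraction.

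Regulators and targets of *Neurog3* gave 0 calls of 19 tested between the beta cell fractions by edgeR, with a median log2 difference of 0.07. *Neurod1* and *Insm1*, transcription factor genes activated by NEUROG3 and kept in adult endocrine cells, were higher in beta cells than in non-beta cells (1.14 and 1.89 for cells labelled NNAT+, 1.10 and 1.88 for cells labelled NNAT-). Without mouse 1 *Neurod1* fell under the 2-fold limit for cells labelled NNAT- (0.95). *Pax6*, the third of the most abundant, had 304, 307 and 151 CPM in cells labelled NNAT+, cells labelled NNAT- and non-beta cells and changes of 0.91 and 0.92, under the 2-fold limit. Lower in beta cells were 8 genes of the list for cells labelled NNAT+ and 9 for cells labelled NNAT-. Over all tested genes 15.5% and 17.1% were lower. *Neurog3* and its abundant targets thus stood on opposite sides of the comparison.

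The genes most like each of the 5 in log2 CPM are given as a description, since libraries of a mouse or fraction share cells and depth. Over all 11 libraries, where beta and non-beta cells form separate clusters, *Ucn3* was nearest to *Papss2*, *Nkx6-1* and *Gpr158* (Pearson's r of 0.998 to 0.999). *St8sia1* was nearest to *Wdr11*, *Elovl5* and *Cyb5b* (0.995 to 0.996), and *Neurog3* to *Fam149a*, *Tenm4* and *Rnf208* (0.975 to 0.987). *Cfap126* was nearest to *Osbpl6*, *Smarcd1* and *Mfsd9* (0.892 to 0.913) and *Aldh1a3* to *Scnn1a*, *Ap2a2* and *Nudcd3* (0.907 to 0.913). Over the 8 beta cell libraries alone, the nearest genes of *Ucn3* were *Hapln1*, *Sirpa* and *Ttc7b* (0.992 to 0.997) and those of *Aldh1a3* were *Shisa5*, *Lingo1* and *Tmem86a* (0.985 to 0.989). Those of *St8sia1* were *M6pr*, *Atp8a2* and *Tmx1* (0.961 to 0.972), and those of *Cfap126* were *Farp2*, *Nuf2* and *Fam171a2* (0.948 to 0.958). For *Neurog3* they were *Fam149a*, *G6pc3* and *Tenm4* (0.941 to 0.961), so that *Fam149a* and *Tenm4* were near it in both sets of libraries.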

How the data were processed

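RNA-seq libraries were made from poly(A)-selected RNA of cells sorted from islets of 4 mice, each replicate number being 1 mouse by the labels and methods. Alignment by the authors was to mm10 with STAR 2.7.1a, and the deposited values are raw counts, without normalisation, for 55401 genes of gencode release 25. The submitters' processing notes also name DESeq2 1.32.0. The strand setting of the counting is not given in the sources used here. Of the genes, 202 carry no symbol.

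Counts were analysed in R 4.3.3 with edgeR 4.0.16: filterByExpr by fraction (17424 genes kept), TMM, 1 quasi-likelihood fit of all 11 libraries with fraction and mouse as terms, and Benjamini-Hochberg adjustment over the genes kept. A call needed a change of more than 2-fold with an adjusted *p* under 0.01. The SE was obtained from the *F* statistic and the log2 fold change. TMM library sizes were used for CPM, with a prior count of 2 added on the log2 scale. The fractions were paired by mouse on the labels and methods. In the deviations from fraction means, libraries of the same mouse correlated at 0.182, 0.199, 0.219 and 0.658 for mice 1 to 4. For different mice the mean was −0.103. Centring on the fraction means ties that value to the same-mouse mean, so it is not an independent baseline. Of 55 pairs of libraries, 0 were identical. Total counts were 37438669–43238376 (labelled NNAT+), 30420352–38532215 (labelled NNAT-) and 35993622–40834007 (non-beta).

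Exon lengths, positions and overlaps came from gencode release 21 on GRCm38, in which 99.9% of the tested genes have a length. Promoter windows came from RefSeq on GRCm38.p6, where 4 of the 5 genes have an entry (*Aldh1a3* has none). Motifs were searched on both strands. Alternatives were no mouse block, DESeq2 1.42.0, RLE size factors, no filter, an adjusted *p* below 0.05, beta cell libraries only, each mouse left out, and for levels, library sizes without TMM or without insulin counts. The 5 genes and all lists were chosen with earlier results of these data known. Of each list were named the genes called between the beta cell fractions, the 3 most abundant tested genes, the CRF receptors and ligands and the ALDH1A genes, and for each of the 5 genes the 3 genes with the highest correlation; *Nnat* was named to check the labels. Some genes that this rule selects are not reported here. *Ero1b* is listed under its older symbol *Ero1lb*.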

Additional observations from a re-analysis of the deposited data

Results flagged for a closer look

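*Ucn3* had 456 CPM in the library labelled NNAT+ of mouse 4, well below the other 3 libraries of that label at 676 to 711 CPM. The gap to the nearest of them was 0.863 of the range of the 4 libraries, above the 95% critical value of Dixon's test for 4 samples, 0.829. It was the only case among 10 groups of 4 libraries checked, and chance flags about 1 group in 20. The library labelled NNAT- of the same mouse was also the lowest of its label, at 490 CPM. The summed level of the 8 beta cell markers was lowest in mouse 4 as well, at 182483 CPM in the library labelled NNAT+ and 181280 CPM in that labelled NNAT-. Without mouse 4 the fitted log2 difference of *Ucn3* between the beta cell fractions was −0.08, beside −0.06 with all mice. Over all mice left out in turn it ran from −0.11 to −0.02.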

How the results depend on the processing

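Between the beta cell fractions, the number of genes called was 8 in the fit with the mouse as a block, 1 with no replicate block, 86 with DESeq2 (80 higher and 6 lower), 26 with no filter and 16 at an adjusted *p* below 0.05, and 0 to 5 with a mouse left out (5 without mouse 1, 3 without mouse 2, 0 without mouse 3 and 3 without mouse 4). With 0 called without mouse 3, 933 genes had an unadjusted *p* below 0.05 by edgeR. Of the 5 genes, 0 were called by edgeR and 1 by DESeq2, *Neurog3* (1.27). *Cfap126* changed sign without mouse 2 (−0.11) and without mouse 4 (−0.07), in a range of −0.11 to 0.20 over the mice left out. For cells labelled NNAT+ against non-beta cells, 3 of the 5 genes in place of 4 were called with no replicate block and 3 to 4 with a mouse left out, since *Aldh1a3* was lost without the block (1.09) and without mouse 2 (1.42, range 1.42 to 1.79). For cells labelled NNAT- the change of *Cfap126* against non-beta cells was −0.50 to 0.046 over the mice left out, positive without mouse 2. With library sizes that leave out *Ins1* and *Ins2*, mean levels in cells labelled NNAT+ and NNAT- were 838 and 902 CPM for *Ucn3*, 9.85 and 9.91 for *Cfap126* and 37.9 and 43.8 for *St8sia1*, and *Neurog3* was at 6.18 CPM in cells labelled NNAT+. The smaller library sizes of that setting raise every level, and the cause of the other changes was not tested. The remaining 202 values for the 5 genes and the counts of genes called kept their direction and their side of the threshold or stayed near the main value. Depth limits *Neurog3*, with 34 to 83 counts in libraries labelled NNAT-, and *Crhr2*, with 0 to 50 counts in beta cells.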
